A study of Mus musculus with 8 samples.

Results

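The interleukin and interleukin receptor genes were read in the ventral prostate of hSKP2-KI and WT mice. They were taken as every row of the expression table whose symbol begins with Il followed by a digit, which gave 83 of the 36333 genes listed. By role, 37 encode ligands, 38 receptor subunits, 3 decoy receptors and 3 soluble antagonists. The other 2 are Il4i1, an amino acid oxidase named for its induction by interleukin-4, and Il1bos, a transcript of the strand opposite Il1b.

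Each group held 4 mice on the FVB/N background, sampled at 12 months of age. In hSKP2-KI mice the coding sequence of human SKP2, the substrate-recognition subunit of a ubiquitin ligase, was knocked in behind a P2A peptide at exon 1 of the endogenous probasin gene (Pbsn), whose promoter is active mainly in prostate epithelium. The insert came through heterozygous females mated to WT FVB/N males, WT mice carried no insert, and which founder line was sequenced is not stated in the sources used here. Whole ventral lobes were sequenced, 1 library per mouse, so fewer cells of a type and less RNA per cell cannot be told apart in any value below.

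Interleukins are secreted proteins through which leukocytes, epithelium and stroma signal to each other. Those of the IL-1 family act through MyD88 adaptors and NF-kB, those of the IL-17 family through the adaptor encoded by Traf3ip2, and most others through receptor chains that bind JAK kinases and STAT factors. Receptor chains are often shared, so that the common gamma chain, the common beta chain and gp130 each serve several ligands, while decoy receptors and soluble antagonists bind ligand or receptor without passing on a signal.

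Values are TPM, read numbers divided by transcript length and scaled to a common total, so levels of different genes are compared per length. Skp2 read 37.3 to 60.6 TPM in hSKP2-KI and 1.05 to 2.27 in WT mice, and Pbsn 93.0 to 174 against 3980 to 9232, so no library went against its label. Because of the common total, a value depends on the level of the most abundant transcripts, and over the 13080 genes tested the median log2 difference (hSKP2-KI minus WT) was 0.23 in the deposited values and -0.01 after median-ratio scaling. The differences of called members are therefore given on both scales. In 9 of 9 mitochondrially encoded genes checked the table lists 0 in all 8 mice, so a gene listed at 0 is described only as that.

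Detection among the 83 members was uneven between ligands and receptors. A level of at least 1 TPM in at least 4 of the 8 mice, the condition for the test, was met by 34 members, and a further 16 reached 0.1 TPM in at least 4 mice, so 50 were detected. Of the 33 others, 18 were above 0 in at least 1 mouse without reaching 0.1 TPM in 4, and 15 were listed at 0 in all 8. The tested members held 23 of the 38 receptors but 8 of the 37 ligands.

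The 15 members listed at 0 were 13 ligands and 2 receptors. The ligands were Il2, Il3, Il4, Il9, Il13, Il17a, Il20, Il22, Il24, Il31, Il1f6, Il1f8 and Il1f10, many of them products of activated T cells or of epidermal epithelium, and Il1f6 and Il1f8 are the older symbols of interleukin-36 alpha and beta. The receptors were Il20ra and Il1rapl2, the latter better known from synapses. Among the 18 members at trace level, Il6 read 0 in every hSKP2-KI mouse and at most 0.0753 TPM in WT, Il10 at most 0.137 TPM in any mouse, and Il17f was above 0 in 1 mouse only, at 0.0995 TPM. The interleukin-1 ligands Il1a and Il1b were detected under the filter for the test, at up to 0.345 and 0.331 TPM.

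Of the 8 ligands that could be tested, Il33 was the most abundant. Il33, an alarmin stored in the nucleus of epithelial and stromal cells, and Il18, an IL-1 family cytokine cut to its active form by caspase-1, are the ligands whose higher level in hSKP2-KI mice held on every scale used below, together with Il17b. For this reason the bases upstream of the start sites of Il33 (chr19:29925113-29960718) and Il18 (chr9:50554700-50581841) are shown, taken from RefSeq on GRCm38.p6, forward strand, 250 bases ending at the base before the start. Capitals mark TATAAA on either strand, the letters of a TATA box.

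Il33, first start, chr19:29924863-29925112: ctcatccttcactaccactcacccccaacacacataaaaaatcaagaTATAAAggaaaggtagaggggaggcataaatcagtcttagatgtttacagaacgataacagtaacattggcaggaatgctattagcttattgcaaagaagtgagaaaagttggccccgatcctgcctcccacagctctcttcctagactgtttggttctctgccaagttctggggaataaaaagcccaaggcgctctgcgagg

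Il33, second start, chr19:29945540-29945789: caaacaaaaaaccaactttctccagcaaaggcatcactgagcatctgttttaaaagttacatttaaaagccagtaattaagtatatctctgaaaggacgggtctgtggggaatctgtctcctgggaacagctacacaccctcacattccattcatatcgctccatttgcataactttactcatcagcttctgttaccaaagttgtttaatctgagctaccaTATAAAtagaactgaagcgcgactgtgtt

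Il18, chr9:50554450-50554699: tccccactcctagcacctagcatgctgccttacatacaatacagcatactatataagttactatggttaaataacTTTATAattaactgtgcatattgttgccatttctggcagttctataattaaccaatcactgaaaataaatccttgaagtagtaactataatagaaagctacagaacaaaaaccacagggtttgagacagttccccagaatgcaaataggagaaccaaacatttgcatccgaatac

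The first Il33 start had TATAAA 203 bases upstream and the second had it 29 bases upstream, while the match of Il18, on the reverse strand, lay 175 bases upstream. TATAAA was present in 13 of the 81 windows available for 66 of the members, against 12.4% of all 32851 windows of the same length. Within 29 to 32 bases of the start it also stood in windows of Il1a, Il1b, Il2, Il13, Il17a, Il17f and Il13ra2. The other motifs searched on both strands were TTCNNNGAA, bound by STAT dimers, found in 9 member windows and 7.02% of all windows, and the core of the interferon-stimulated response element, GAAA repeated after any 2 bases, found in 2 member windows and 2.98% of all. Neither stood in the 3 windows shown, and no motif searched lies within another.

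The plot of levels orders the 34 tested members by mean TPM. At its top stood the receptor subunits Il11ra1, Il17re, Il17rc, Il6st, Il10rb, Il1r1 and Il13ra1 and the ligands Il33 and Il17d, the 9 members with a mean of at least 10 TPM. Il11ra1, the interleukin-11 receptor alpha chain, averaged 102 ± 20.9 TPM (SD, n = 4) in hSKP2-KI and 95.5 ± 4.36 TPM (SD, n = 4) in WT mice, with overlapping ranges, and its near-identical copy Il11ra2 was listed at no more than 0.221 TPM, so how reads were divided between the copies is uncertain. Il17re followed at 67.7 ± 4.01 and 70.6 ± 1.70 TPM (SD, n = 4 each), and its ligand Il17c was above 0 in 2 WT mice only, at up to 0.131 TPM. In WT mice no value of Il11ra1 came near Il17re, whereas Il17rc and Il6st, Il6st and Il33, and Il1r1, Il17d and Il13ra1 overlapped with their neighbours in the order.

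**Figure D1:**
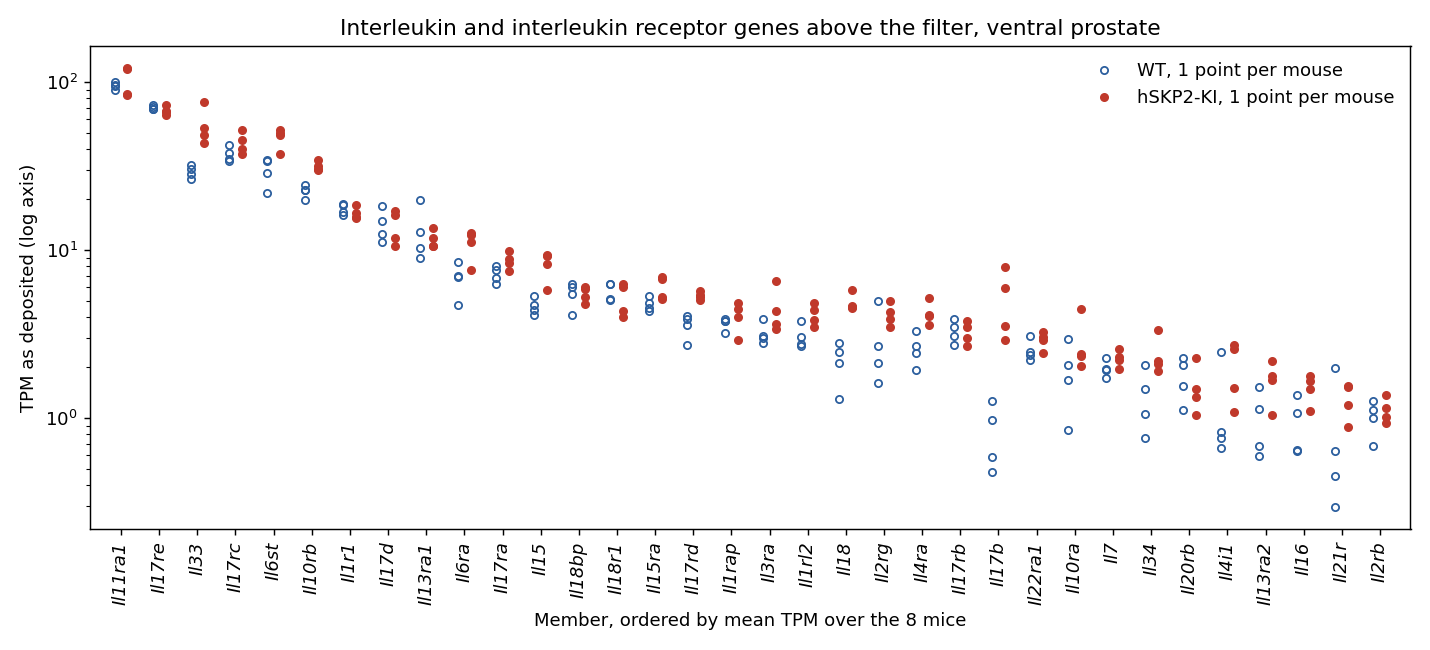
TPM of the 34 tested members in each mouse (vertical axis, log scale), ordered by mean TPM over the 8 mice; open circles are WT and filled circles hSKP2-KI mice. Il11ra1 and Il17re lie highest with overlapping genotypes, while the filled circles of Il33, Il18 and Il17b lie wholly above the open ones.

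In the deposited TPM, 10 of the 34 tested members (29.4%) were called at an adjusted p under 0.05 by limma, and each was higher in hSKP2-KI mice, whereas of all tested genes 33.9% were called, 32.7% higher and 1.23% lower. The share of members called was thus near the share of all genes. They were the ligands Il33, Il18, Il17b, Il15 and Il34 and the receptors Il6st, Il6ra, Il10rb, Il17rd and Il4ra. Of the 34 tested members, 8 had every hSKP2-KI mouse above every WT mouse and 0 every one below, against 34% and 1.03% of all tested genes. These 8 were all called members, and the called members Il6ra and Il34 overlapped. The median difference was 0.35 on the log2 scale for the members and 0.23 for all genes, with 27 members above 0 and 7 below.

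After median-ratio scaling, 4 of 34 members (11.8%) were called against 11.2% of all genes, 6.92% higher and 4.25% lower. Il33, Il18 and Il17b stayed higher in hSKP2-KI mice and Il17re was lower, and the same 4 were called after quantile normalization and after removal of the 20 most abundant genes, which each called 10.1% of all genes. The median difference was 0.14 for the members and -0.01 for all genes, with 19 members above 0 and 15 below. The 8 ligands had a median difference of 0.61 in the deposited TPM and 0.41 scaled, with 5 and 3 called higher, where 32.7% and 6.92% of all genes were. The 23 receptors had a median difference of 0.24 in the deposited TPM and -0.0015 scaled. Of them 5 were called higher in the deposited TPM and 1 lower scaled, where 32.7% and 4.25% of all genes were. Whether ligands differed from receptors was not tested.

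**Figure D2:**
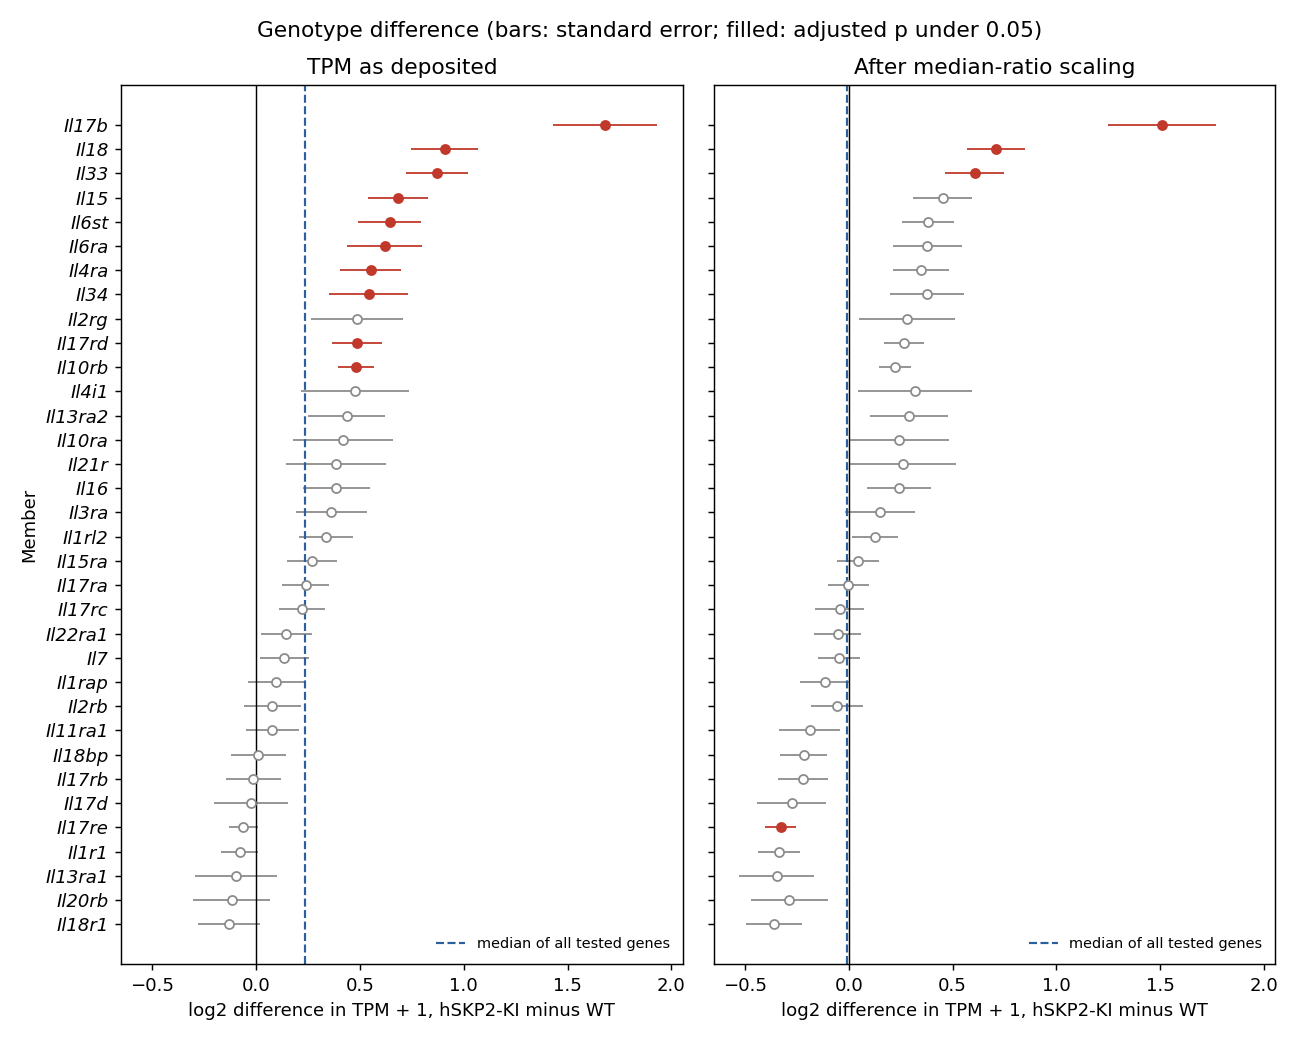
Difference in log2(TPM + 1), hSKP2-KI minus WT (horizontal axis), for the 34 tested members in the deposited TPM (left) and after median-ratio scaling (right); bars are the standard error, filled points an adjusted p under 0.05, and dashed lines the median of all tested genes. On the left 10 points are filled and on the right 4, with Il17b farthest to the right on both sides and Il17re filled below 0 on the right.

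Il33 read 43.5, 76.6, 53.5 and 48.5 TPM in the hSKP2-KI mice and 26.6, 32.0, 30.2 and 28.4 TPM in the WT mice. Every hSKP2-KI mouse lay above every WT mouse, and replicate 2 was the highest. The means were 55.5 ± 14.6 and 29.3 ± 2.33 TPM (SD, n = 4 each), a ratio of 1.90 and a log2 difference of 0.87 (SE 0.15, limma adjusted p = 0.00326). Scaled, the difference was 0.61 (SE 0.14, limma adjusted p = 0.0259), and over all 17 alternatives the adjusted p lay between 0.00268 and 0.0259. Il1rl1, which encodes the interleukin-33 receptor ST2, was under the filter, at 0.156 to 0.549 TPM in hSKP2-KI and 0.113 to 0.183 TPM in WT mice, with overlap. Its co-receptor Il1rap averaged 4.05 ± 0.835 and 3.68 ± 0.303 TPM (SD, n = 4 each) and was not called.

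Il18 read 4.66, 5.75, 4.51 and 4.56 TPM in hSKP2-KI and 1.30, 2.46, 2.11 and 2.81 TPM in WT mice. The lowest hSKP2-KI value was above the highest WT value, and 3 of the 4 hSKP2-KI mice lay between 4.51 and 4.66 TPM. The ratio of means was 2.24 and the log2 difference 0.91 (SE 0.16, limma adjusted p = 0.00362), or 0.71 scaled (SE 0.14, limma adjusted p = 0.0143), with adjusted p between 0.00448 and 0.0244 over 16 alternatives. Its receptor chain Il18r1 and its soluble antagonist Il18bp were not called, at differences of -0.13 and 0.01 in the deposited TPM and -0.36 and -0.22 scaled, and the accessory chain Il18rap read at most 0.370 TPM.

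The maturation of Il18 and Il1b runs through the inflammasome, and 4 of its 10 listed genes were tested. All 4, the adaptor Pycard, the caspases Casp1 and Casp4 and the pore-forming Gsdmd, were called higher in the deposited TPM, where 32.7% of all genes were, and Gsdmd alone after median-ratio scaling, where 6.92% were, with none after the other 2 scalings. Without WT replicate 1 the count was 2 of 4, where 22.9% of all genes were called in either direction, against 33.9% with all mice. Casp1 read 1.71, 4.18, 2.58 and 2.60 TPM in hSKP2-KI and 0.223, 0.721, 1.42 and 1.37 TPM in WT mice, without overlap (log2 difference 0.98, SE 0.25, limma adjusted p = 0.0144, and 0.83, without passing, scaled). Of the WT mice only replicates 3 and 4 reached 1 TPM for Casp1, so it met the filter for the test only with the hSKP2-KI mice. Gsdmd averaged 13.3 ± 1.30 against 8.23 ± 1.18 TPM (SD, n = 4 each). The sensor Nlrp3 was under the filter, at no more than 0.364 TPM in any mouse.

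Il17b had the largest difference of the 34 tested members. This IL-17 family ligand, which binds Il17rb, read 5.96, 7.95, 2.90 and 3.54 TPM in hSKP2-KI and 0.586, 0.474, 1.27 and 0.973 TPM in WT mice. The genotypes did not overlap, although replicates 1 and 2 of hSKP2-KI were well above replicates 3 and 4. Of the WT mice only replicate 3 reached 1 TPM, so Il17b met the filter for the test through the hSKP2-KI mice. Its call and separation in that fit are therefore not independent of the filter. It was also called with no filter, and with the filter of 0.1 TPM, which every WT mouse met (log2 difference 2.46, limma adjusted p = 0.00248). The ratio of means was 6.16 and the log2 difference 1.68 (SE 0.25, limma adjusted p = 0.0019), or 1.51 scaled (SE 0.26, limma adjusted p = 0.00875), and the adjusted p lay between 0.00166 and 0.0141 over 16 alternatives. Its receptor Il17rb read 3.25 ± 0.489 TPM in hSKP2-KI and 3.29 ± 0.504 TPM in WT mice (SD, n = 4 each) and was not called.

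Il15, which sustains natural killer and memory CD8 T cells, is an interleukin that the study names among interferon gamma pathway genes. The study also reported higher Il15 in hSKP2-KI prostates by quantitative PCR, and higher IL15 in a human prostate cancer cell line overexpressing SKP2. In the sequenced lobes Il15 read 9.18, 9.34, 5.78 and 8.23 TPM in hSKP2-KI mice and 4.38, 4.11, 4.73 and 5.29 TPM in WT mice. The genotypes did not overlap, and replicate 3 of hSKP2-KI came closest to WT. The log2 difference was 0.68 (SE 0.14, limma adjusted p = 0.00724) in the deposited TPM and 0.45 scaled (SE 0.14, limma adjusted p = 0.0708), with an adjusted p between 0.0024 and 0.131 over 17 alternatives, of which 14 passed. Of its receptor chains, Il15ra had differences of 0.27 and 0.04 on the 2 scales, Il2rb 0.08 and -0.06 and Il2rg 0.49 and 0.28, none called on either.

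Il34 is a ligand of the macrophage receptor Csf1r and was called narrowly. It read 1.91, 3.36, 2.09 and 2.18 TPM in hSKP2-KI and 1.06, 2.08, 0.761 and 1.49 TPM in WT mice. The genotypes overlapped, since WT replicate 2 was above hSKP2-KI replicate 1. The log2 difference of 0.54 (SE 0.19, limma adjusted p = 0.0496) became 0.38 on scaling (limma adjusted p = 0.205), and 2 of 16 alternatives passed, with adjusted p from 0.0169 to 0.408. Csf1r itself averaged 22.6 ± 7.30 and 13.5 ± 4.66 TPM (SD, n = 4 each) with overlap, at a log2 difference of 0.72 (limma adjusted p = 0.0482) and, without passing, 0.47 scaled.

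The remaining tested ligands were Il17d, Il7 and Il16, and none was called on either scale. Il17d had 13.9 ± 3.24 and 14.2 ± 3.13 TPM (SD, n = 4 each) at a difference of -0.02 (-0.28 scaled), and Il7, a survival factor of lymphocytes, 2.26 ± 0.254 and 1.97 ± 0.231 TPM (SD, n = 4 each) at 0.14 (-0.047 scaled). Il16, a ligand of CD4, had a difference of 0.39 (limma adjusted p = 0.081) and 0.24 scaled.

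**Figure D3:**
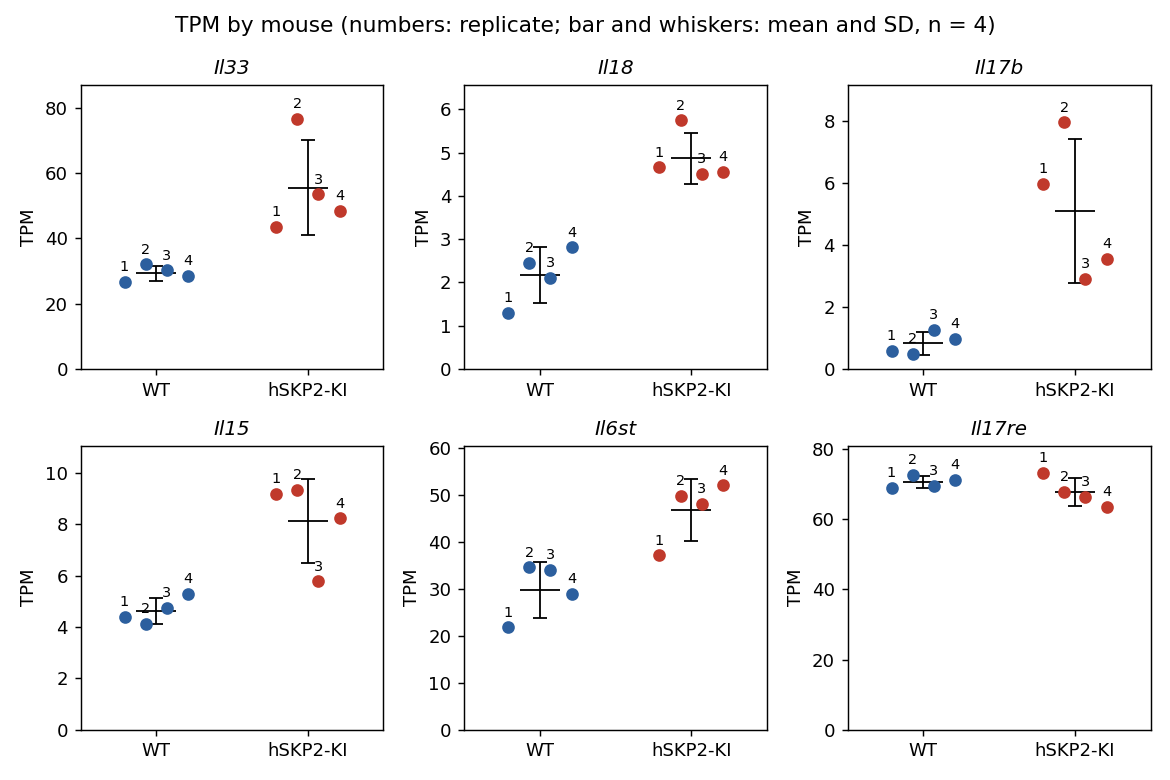
TPM in each of the 4 WT (blue) and 4 hSKP2-KI (red) mice for 4 ligands and 2 receptors; numbers are replicates and the bar and whiskers the mean and SD (n = 4). For Il33, Il18, Il17b, Il15 and Il6st every red point lies above every blue one, and for Il17re the points overlap around 70.6 TPM in WT and 67.7 TPM in hSKP2-KI mice.

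Of the 3 gp130-group receptors tested, Il6st and Il6ra were called higher in the deposited TPM and none after scaling, where 32.7% and 6.92% of all genes were. Il11ra1 was not called. Il6st, the shared gp130 chain, read 37.1, 49.8, 48.1 and 52.0 TPM in hSKP2-KI and 21.8, 34.5, 34.0 and 28.9 TPM in WT mice, without overlap. Its log2 difference was 0.64 (SE 0.15, limma adjusted p = 0.0108) and 0.38 scaled (limma adjusted p = 0.0788), with adjusted p between 0.00333 and 0.122 over 17 alternatives. Il6ra, the interleukin-6 binding chain, read 7.60, 12.2, 12.7 and 11.2 TPM in hSKP2-KI and 4.72, 6.87, 8.52 and 6.998 TPM in WT mice. Replicate 1 of hSKP2-KI lay among the WT values, and the difference was 0.62 (SE 0.18, limma adjusted p = 0.0252) or 0.38 scaled (limma adjusted p = 0.167), 8 of 17 alternatives passing with adjusted p from 0.0041 to 0.215. The ligands of this group in the list, Il6, Il11 and Il31, read at most 0.360 TPM in any mouse.

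Among gp130 partners that carry other names, Osmr encodes the oncostatin M receptor chain. It read 3.79, 6.12, 4.73 and 5.02 TPM in hSKP2-KI and 2.17, 3.02, 2.81 and 2.20 TPM in WT mice, without overlap (log2 difference 0.73, SE 0.14, limma adjusted p = 0.00548, and 0.52 with an adjusted p of 0.0287 after median-ratio scaling), but not after quantile normalization. Its ligand Osm read at most 0.511 TPM. Lifr, the chain shared by leukaemia inhibitory factor, was not called.

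Il10rb, the chain common to receptors of interleukin-10, interleukin-22 and the lambda interferons, read 31.6, 34.5, 30.1 and 30.5 TPM in hSKP2-KI mice and 19.8, 22.8, 24.3 and 22.8 TPM in WT mice. Both groups were tight and did not overlap, at a log2 difference of 0.48 (SE 0.09, limma adjusted p = 0.00378) and 0.22 scaled (limma adjusted p = 0.084), with 14 of 17 alternatives passing and adjusted p from 0.00354 to 0.084. Its ligand-specific partners Il10ra, Il22ra1 and Ifnlr1 were not called. Their differences were 0.42, 0.14 and 0.13 in the deposited TPM and 0.24, -0.053 and -0.11 scaled. Il20rb, another receptor chain of the IL-10 group, was not called either, at -0.12 and -0.29.

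Il4ra, which pairs with Il2rg or Il13ra1 for interleukins 4 and 13, read 4.13, 5.20, 4.05 and 3.56 TPM in hSKP2-KI and 1.93, 2.67, 3.28 and 2.45 TPM in WT mice. There was no overlap, and the log2 difference was 0.55 (SE 0.14, limma adjusted p = 0.017) or 0.35 scaled (limma adjusted p = 0.125), with adjusted p from 0.0167 to 0.319 over 16 alternatives. Il13ra1 was not called and had its highest value, 19.8 TPM, in WT replicate 2. Il13ra2, a decoy for interleukin-13, averaged 1.67 ± 0.468 and 0.985 ± 0.437 TPM (SD, n = 4 each) and was not called (limma adjusted p = 0.0879), while Il4 and Il13 were listed at 0 throughout.

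The 5 receptors of the IL-17 family were all tested, and their levels summed to 119 to 142 TPM in hSKP2-KI and 119 to 129 TPM in WT mice. Il17rd, a family member also known to dampen fibroblast growth factor signalling, read 5.38, 5.01, 5.74 and 5.26 TPM in hSKP2-KI and 2.74, 4.08, 3.87 and 3.57 TPM in WT mice, without overlap on either scale (log2 difference 0.48, SE 0.12, limma adjusted p = 0.0134, and 0.27 with an adjusted p of 0.0992 scaled, from 0.0135 to 0.291 over 16 alternatives). Il17ra, the chain common to the family, averaged 8.65 ± 0.979 and 7.19 ± 0.808 TPM (SD, n = 4 each) and Il17rc 43.7 ± 6.47 and 37.2 ± 3.68 TPM (SD, n = 4 each), and neither was called.

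Il17re was the only member called lower on any scale or alternative tried. In the deposited TPM it read 73.2, 67.7, 66.3 and 63.6 in hSKP2-KI and 68.9, 72.7, 69.6 and 71.2 in WT mice, overlapping, with a log2 difference of -0.06 (SE 0.07, limma adjusted p = 0.482). After median-ratio scaling the values were 68.5, 61.1, 60.5 and 56.6 against 83.2, 73.7, 77.8 and 75.4, every hSKP2-KI mouse below every WT mouse, with a difference of -0.33 (SE 0.07, limma adjusted p = 0.0231). Over 17 alternatives the adjusted p ran from 0.0148 to 0.758 and 3, the 3 scalings, passed. Il17re (chr6:113458699-113470758) lies 697 bases from Il17rc on GRCm38.p6, and whether reads were counted by strand is not stated. Il1r1, the signalling interleukin-1 receptor, also had every hSKP2-KI mouse below every WT mouse after scaling, at a difference of -0.34, without passing the test (limma adjusted p = 0.0624, and up to 0.853 over 17 alternatives). Such complete separation after scaling was found for 2 members below and 4 above (Il33, Il18, Il17b and Il17rd), against 8.91% and 10.3% of all tested genes.

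One member under the filter separated the genotypes and is described for that reason. Il1rn, the interleukin-1 receptor antagonist, read 0.317, 3.22, 0.318 and 0.343 TPM in hSKP2-KI and 0.0899, 0.0323, 0.0915 and 0.0919 TPM in WT mice. Replicate 2 of hSKP2-KI stood far above the other 3, which still lay above all WT mice. With a filter and pseudocount of 0.1 TPM the log2 difference was 2.03 (SE 0.62, limma adjusted p = 0.0365), in a fit that called 24.4% of all genes higher. Every WT value was under 0.1 TPM, so Il1rn met this filter only through the hSKP2-KI mice. Neither that p-value nor the separation is therefore independent of the filter, and no conclusion is drawn from them. Complete separation with hSKP2-KI above held for 12.6% of the 4304 genes detected under the filter, and here for 1 of 16 members. How many reads stand behind such low values is unknown.

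The highest values of several members lay in the same libraries. Of the 50 detected members, hSKP2-KI replicate 2 had the highest value of its genotype in 25, WT replicate 3 in 21 and WT replicate 2 in 18. These counts rest on the deposited TPM and were not made over all genes, so whether they are particular to the members is unknown. Il7r, the interleukin-7 receptor of lymphocytes, read 4.74 TPM in hSKP2-KI replicate 2 and 0.748 to 0.955 TPM in the other 3, and 1.58 TPM in WT replicate 3 against 0.284 to 0.612 TPM. Il21r and Il2rg were likewise highest among WT mice in replicate 3, at 1.98 and 4.96 TPM, and Il10ra was highest in replicate 2 of hSKP2-KI and replicate 3 of WT, at 4.48 and 2.95 TPM.

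The pan-leukocyte markers Ptprc, Laptm5 and Coro1a were at or above 1 TPM in both groups, 3 of 3, and summed to 35.1 to 80.1 TPM in hSKP2-KI and 18.2 to 40.1 TPM in WT mice, highest in the same 2 libraries. Summed B cell markers ran from 3.03 to 14.9 and from 1.76 to 21.9 TPM, and T cell markers from 5.92 to 7.95 and from 2.62 to 5.15 TPM. The part of leukocyte content in the differences of Il2rg, Il10ra, Il21r, Il7r, Il34, Il4ra and Il1rn was not tested. Without hSKP2-KI replicate 2 and WT replicate 3, an alternative chosen after seeing the data, 9 of 34 members (26.5%) were called. Of all genes 14.9% were called there, against 33.9% with all mice. The 9 were 8 of the 10 above and Il2rg, with Il6ra and Il34 lost. Il2rg had its highest WT value in the WT library left out, and was also called without WT replicate 3 alone. Its call is therefore not independent of that choice. The difference of Il6ra was then 0.67 (limma adjusted p = 0.0526), no smaller than with all mice, and that of Il34 was 0.29.

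**Figure D4:**
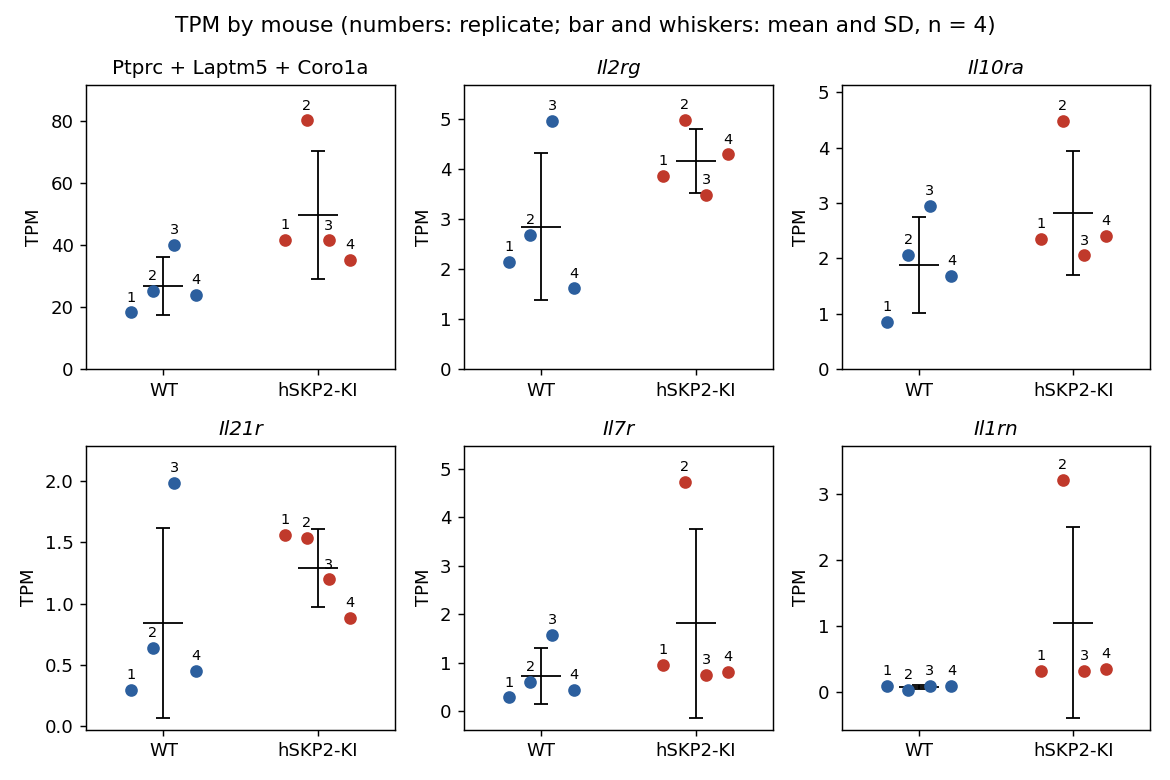
TPM in each of the 4 WT (blue) and 4 hSKP2-KI (red) mice for the sum of 3 pan-leukocyte markers and 5 members; numbers are replicates and the bar and whiskers the mean and SD (n = 4). Replicate 2 of hSKP2-KI is the highest red point and replicate 3 of WT the highest blue point for the marker sum, Il2rg, Il10ra and Il7r.

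Other tissue components differed between the genotypes as well. Macrophage markers (6 of 6 at or above 1 TPM in both groups) summed to 196 to 401 TPM in hSKP2-KI and 85.7 to 174 TPM in WT mice, and fibroblast markers (6 of 6) to 759 to 1333 and 420 to 605 TPM, without overlap in either list. Of the 6 fibroblast markers, 6 were called higher in the deposited TPM and 2 after scaling, and of the 6 macrophage markers 5 and 0, where 32.7% and 6.92% of all genes were. Smooth muscle markers summed to 2388 to 3693 and 1656 to 2066 TPM, and basal epithelial markers to 292 to 424 and 196 to 305 TPM. Of 4 smooth muscle markers 4 were called higher in the deposited TPM and 2 after scaling, and of 4 basal markers 2 and 0. The part of these components in the higher Il33, Il18, Il17b and Il15 was not tested. The tissue label held: luminal markers, which include the secretory gene Sbp, were the most abundant, at 201069 to 221291 TPM in hSKP2-KI and 235259 to 259220 TPM in WT mice. Of the 7 luminal markers, 2 were called higher and 0 lower in the deposited TPM, and 0 in either direction after median-ratio scaling. The seminal vesicle markers summed to at most 0.656 TPM, with Svs2 listed at 0 in all 8. Urothelial markers, 3 in number, summed to 24.6 to 69.3 and 7.98 to 14.9 TPM, endothelial markers to 30.0 to 54.0 and 17.6 to 26.5 TPM, mast cell markers to 11.5 to 29.4 and 7.46 to 16.9 TPM, natural killer markers to 3.54 to 7.01 and 3.92 to 5.39 TPM, neutrophil markers to 0.568 to 5.10 and at most 1.16 TPM, and dendritic markers to 2.08 to 7.38 and 0.669 to 2.43 TPM. On the same 2 scales, 2 and 2 of 2 urothelial markers tested were called higher, 4 and 1 of 5 endothelial, 3 and 0 of 4 mast cell and 0 and 0 of 2 natural killer markers. Skeletal muscle, adipocyte and erythrocyte markers overlapped between the genotypes, the erythrocyte markers through WT replicate 2 alone. Of 3 tested in each of these lists, 1, 0 and 2 were called higher in the deposited TPM and 0 after scaling.

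The signalling genes downstream were read from lists of 25 JAK-STAT and 20 IL-1 and IL-17 adaptor genes. Of 24 JAK-STAT genes tested, 11 were called higher in the deposited TPM (45.8%, against 32.7% of all genes), among them Jak1, Jak2, Jak3, Stat3 and Stat6. That count was 6 (25%), 5 (20.8%) and 4 (16.7%) without hSKP2-KI replicates 2, 3 and 4, and 3 (12.5%), 7 (29.2%) and 6 (25%) without WT replicates 1, 3 and 4. Of all genes 23.2%, 27.7%, 23.0%, 22.9%, 23.0% and 26.8% were called there in either direction. It was 10 (41.7%) without hSKP2-KI replicate 1 and 12 (50%) without WT replicate 2, where 28.5% and 35.8% of all genes were called. After median-ratio scaling none of the 11 JAK-STAT genes was called. Then 1 gene, the STAT5-induced inhibitor Cish, was lower (log2 difference -0.40, limma adjusted p = 0.0392), where 4.25% of all genes were. Of 19 adaptor genes tested, 7 were called higher in the deposited TPM (36.8%, near the 32.7% of all genes), including Myd88, Nfkb2, Rela and Relb. Without hSKP2-KI replicate 2 or WT replicate 1 or 3 the count was 4 (21.1%). Of all genes 23.2%, 22.9% and 23.0% were called there in either direction. Median-ratio scaling gave 1 call, the kinase Irak1, lower (log2 difference -0.34, limma adjusted p = 0.0196), and the other 2 scalings gave 0.

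The 20 partner receptors and ligands without an interleukin symbol had 15 tested and 5 called higher (33.3%, near the 32.7% of all genes), which were Csf2rb, Csf2rb2, Osmr, Csf1r and Csf1. Without hSKP2-KI replicate 2 or WT replicate 1 or 4 the count was 3 (20%). Of all genes 23.2%, 22.9% and 26.8% were called there in either direction. Csf2rb2, the beta chain used in mice by interleukin-3 alone, and Osmr were also called after median-ratio scaling (6.92% of all genes), and neither after quantile normalization. Csf2rb2 read 1.66, 2.90, 2.17 and 2.30 TPM in hSKP2-KI and 0.766, 0.998, 1.31 and 0.710 TPM in WT mice, without overlap (log2 difference 0.74, SE 0.15, limma adjusted p = 0.00682, and 0.58 with an adjusted p of 0.0332 after median-ratio scaling). Of the WT mice only replicate 3 reached 1 TPM, so Csf2rb2 met the filter for the test through the hSKP2-KI mice. Its call and separation are therefore not independent of the filter. It is a close copy of Csf2rb, so the split of reads between them is uncertain. Its partner chain Il3ra averaged 4.49 ± 1.45 and 3.19 ± 0.469 TPM (SD, n = 4 each) and was not called, and its ligand Il3 was listed at 0 in all 8 mice.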

How the data were processed

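The authors sequenced poly(A) RNA from whole ventral lobes of 8 mice, 4 per genotype, mapped trimmed reads in CLC software and deposited TPM for 36333 genes. The submitters' processing notes name the builds mm10 and GRCm38, and the software version, annotation, counting options and use of strand are not given in the sources used here. Each library sums to 1000000 TPM, so the depth behind a value is unknown and no counting interval was given. The table held 0 columns of other samples.

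From these values, genes with at least 1 TPM in at least 4 of 8 samples (13080) were fitted as log2(TPM + 1) by limma 3.58.1 (R 4.3.3) using a trended eBayes step, and p-values were adjusted by Benjamini-Hochberg at 0.05. The added 1 shrinks fold changes of low genes. Groups came from the sample labels, which call the samples biological replicates. The members and lists were chosen with earlier results of these data known. Named with values were called members, the 10 most abundant, those under the filter whose genotypes separated, Il15, partners of these, Skp2 and Pbsn. Il7r, Il21r, Il10ra, Il2rg and trace members were named after their values were seen. One gene of the signalling lists is not reported here. The fit was tested on simulated data.

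Alternatives were a pseudocount of 0.1, no filter, a mean of at least 5 TPM, 0.1 TPM with a pseudocount of 0.1, median-ratio scaling, quantile normalization, rescaling without the 20 genes of highest TPM, a replicate block and leaving out each sample, plus, chosen after seeing the data, leaving out a pair of libraries. Positions and upstream sequences came from RefSeq tables of GRCm38.p6, matched by Entrez identifier for 83 of 83 members. Python 3.11.15 and matplotlib 3.10.9 drew the figures.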

Additional observations from a re-analysis of the deposited data

Results flagged for a closer look

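Among 70 groups of 4 mice checked, those of the tested members and Il1rn, 5 held a mouse whose gap to the others took up more of the group's range than Dixon's 95% critical value allows, where chance gives about 3.5. Il4i1 read 2.48 TPM in WT replicate 3 against 0.667 to 0.825 TPM in the other WT mice. Il18 read 5.75 TPM in hSKP2-KI replicate 2 against 4.51 to 4.66 TPM in the others, still with no overlap with WT. Il1rap read 3.23 TPM in WT replicate 1 against 3.80 to 3.88 TPM. Il1rn was set apart in both genotypes, at 3.22 TPM in hSKP2-KI replicate 2 against 0.317 to 0.343 TPM and at 0.0323 TPM in WT replicate 2 against 0.0899 to 0.0919 TPM. Pan-leukocyte markers were highest in hSKP2-KI replicate 2 and WT replicate 3, and their part in these values was not tested.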

How the results depend on the processing

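Il33, Il18 and Il17b kept their direction and their call under every alternative in which they were tested. The count of members called, 10 in the deposited TPM, was 5 with a mean of at least 5 TPM (15 members tested), 4 after median-ratio scaling, quantile normalization or removal of the 20 most abundant genes, and 8 to 12 with 1 sample left out. Il6ra missed the threshold without hSKP2-KI replicate 2, 3 or 4 or WT replicate 1, at log2 differences of 0.56, 0.54, 0.60 and 0.48 (0.62 with all mice), and Il34 without any 1 sample other than WT replicate 2, at 0.41 to 0.61 (0.54 with all mice). Over all genes, 4433 calls became 1461, 1317 and 1321 under the 3 scalings, 2993 to 4677 with 1 sample left out and 1955 without hSKP2-KI replicate 2 and WT replicate 3 together. In the same order of scalings and then this pair, JAK-STAT calls (11) were 1, 1, 1 and 3, adaptor calls (7) 1, 0, 0 and 1, inflammasome calls (4) 1, 0, 0 and 2, and partner calls (5) 2, 0, 2 and 4. With no filter JAK-STAT, inflammasome and partner calls were 4, 2 and 3, and with a mean of at least 5 TPM inflammasome and partner calls were 2 and 2. Leaving out 1 sample gave 3 to 12, 4 to 7, 2 to 4 and 3 to 6 calls in the 4 lists. The cause of these changes in the counts was not tested. The log2 difference of some uncalled members changed sign. Under median-ratio scaling these were Il7 -0.047, Il11ra1 -0.19, Il22ra1 -0.053, Il17rc -0.043, Il17ra -0.0015, Il18bp -0.22, Il2rb -0.057 and Il1rap -0.12. Under quantile normalization they were Il15ra -0.044, Il7 -0.18, Il11ra1 -0.14, Il22ra1 -0.19, Il17rc -0.012, Il17ra -0.050, Il18bp -0.30, Il2rb -0.21 and Il1rap -0.23. Without the 20 most abundant genes they were Il7 -0.038, Il11ra1 -0.17, Il22ra1 -0.042, Il17rc -0.023, Il18bp -0.21, Il2rb -0.061 and Il1rap -0.11. With 1 sample left out the lowest and highest values were -0.011 and 0.16 for Il11ra1, -0.099 and 0.072 for Il18bp, -0.081 and 0.052 for Il17rb, -0.13 and 0.098 for Il17d, -0.24 and 0.11 for Il13ra1 and -0.0050 and 0.14 for Il2rb. With the pair left out Il11ra1 was at -0.0048 and Il17rb at 0.12. Whether same-numbered mice belong together is not stated in the labels, and the main fit did not pair them. The correlations of their deviations over genes were 0.22, -0.11, 0.17 and -0.01, and 4 of 8 samples correlated best with their own number. A replicate block called 10 members, the same 10, and 5128 genes, against 4433 without it. TPM carries no depth, so precision at low levels is unknown.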
